A study of Rattus norvegicus with 8 samples.

Results

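The growth hormone and insulin-like growth factor (IGF) axis was followed in RNAseq of whole rat hippocampi, through the hormone Gh1, its receptor Ghr, the growth factors Igf1 and Igf2, their receptors Igf1r and Igf2r, and the binding proteins Igfbp2, Igfbp4, Igfbp5 and Igfbp6. These 10 genes, of 13272 gene symbols in the authors' deposited table, were chosen by symbol with the FPKM values of this same comparison already known, so their differences are given as a description and without a test. They occupy 13 of the 16266 transcript rows, 3 for Ghr, 2 for Igf2 and 1 for each of the other genes, and every row was kept.

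All 8 rats were adrenalectomized, which removes the endogenous source of corticosterone, and carried a cannula in the jugular vein. According to the study's methods they recovered with low-dose corticosterone in the drinking saline, which was replaced with plain saline before the experiment. At zeitgeber time (ZT) 2, that is 2 h after lights on, 4 rats received vehicle (0.45% saline) for 30 min and 4 rats (CORT) received corticosterone-2-hydroxypropyl-β-cyclodextrin at 0.75 mg/mL for the same time, and the hippocampi were collected 2 h after the infusion began. The labels give Sprague-Dawley rats aged 3 to 4 months, whereas the study's methods name male Lister hooded rats of a younger age, and the titles call the vehicle libraries untreated. The authors' deposited table holds 1 FPKM value per transcript for each group, in which the 4 rats are already combined. FPKM is the number of sequenced fragments scaled for the length of the transcript and the size of the library. No value per rat was used, so no spread between rats, no error and no p-value can be given, and the depth of the libraries is unknown here. Each difference below is the log2 ratio of CORT to vehicle FPKM, and a row past 1.5-fold is described as such without being called changed.

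Growth hormone, the main product of the somatotroph cells of the anterior pituitary, acts through the receptor Ghr and a JAK2 and STAT5 cascade that induces Igf1 in the liver and other tissues. IGF1 and IGF2 both signal through Igf1r, a tyrosine kinase related to the insulin receptor, while Igf2r takes up IGF2 for degradation and also sorts lysosomal enzymes. The secreted binding proteins hold the growth factors in the extracellular fluid and control their access to the receptors. Low levels of growth hormone RNA are known in the hippocampus itself, and in the adult brain Igf2 is made mostly by the choroid plexus and the meninges.

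Promoters are shown for 4 of the members. Igfbp2 and Igfbp5 were taken because they are neighbours with similar differences, Igfbp6 because it had the largest difference of the binding proteins, and Igf2r because its RNA hardly differed between the groups. Each is the 250 bases before the RefSeq start in the GRCr8 build, read 5′ to 3′ on the gene's strand. Capitals mark the hexamer TGTTCT on either strand, which is the core of the glucocorticoid receptor element, and the E-box CACGTG, which is bound by the clock proteins.
Igfbp2, chr9:81864561-81864810, plus strand: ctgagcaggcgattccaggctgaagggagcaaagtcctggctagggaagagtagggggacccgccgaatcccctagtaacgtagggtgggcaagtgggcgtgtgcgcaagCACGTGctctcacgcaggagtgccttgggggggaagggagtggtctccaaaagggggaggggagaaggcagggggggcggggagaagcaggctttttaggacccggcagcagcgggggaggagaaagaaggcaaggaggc
Igfbp5, chr9:81914188-81914437, minus strand: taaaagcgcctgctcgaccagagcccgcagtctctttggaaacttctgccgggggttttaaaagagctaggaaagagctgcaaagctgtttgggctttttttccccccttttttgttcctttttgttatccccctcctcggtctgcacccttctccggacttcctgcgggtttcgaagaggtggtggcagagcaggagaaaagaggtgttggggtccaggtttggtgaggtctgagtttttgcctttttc
Igfbp6, chr7:135154669-135154918, plus strand: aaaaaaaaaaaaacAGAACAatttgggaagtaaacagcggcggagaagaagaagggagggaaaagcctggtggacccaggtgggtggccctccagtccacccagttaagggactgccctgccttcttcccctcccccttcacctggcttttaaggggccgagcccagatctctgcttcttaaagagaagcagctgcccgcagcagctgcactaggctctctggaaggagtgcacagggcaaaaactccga
Igf2r, chr1:50526628-50526877, plus strand: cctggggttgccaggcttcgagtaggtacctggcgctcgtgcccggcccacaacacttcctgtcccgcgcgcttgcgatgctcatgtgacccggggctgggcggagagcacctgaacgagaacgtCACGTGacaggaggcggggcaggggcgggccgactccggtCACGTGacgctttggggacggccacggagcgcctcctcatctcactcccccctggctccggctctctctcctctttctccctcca

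Of the members, all but Gh1, that is 9, matched the RefSeq promoter table, with 10 promoters because Igf2 has 2. TGTTCT or its complement AGAACA was found in 3 of the 10, those of Ghr, Igf1 and Igfbp6, and in 17.5% of all 33469 promoters of the same length. CACGTG was found in 3 of the 10, those of Igf1r, Igf2r and Igfbp2, against 5.59% of all promoters. In Igf2r it occurs at 125 and at 85 bases before the start, and in Igfbp2 at 140 bases. The full palindromic element, AGAACA and TGTTCT with 3 bases between them, was in none of the 10 and in 0.0120% of all promoters. TATAAA, read on the gene's strand alone, was found for Igfbp4, 40 bases before its start, and in 8.06% of all promoters. These matches describe the letters in the window and nothing about binding.

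Gh1, the growth hormone gene on chromosome 10 of rn6 between 94486204 and 94488180, had the largest difference of the 13 rows. In the authors' deposited table its single transcript, ENSRNOT00000015818.5, was at 5.60 FPKM in the vehicle group and at 1.14 FPKM in the CORT group. The CORT value was thus 4.91-fold lower, a log2 ratio of -2.29. Counted from the lowest ratio, Gh1 stood at rank 57 of the 16266 rows. Among the 5370 rows whose vehicle FPKM was within 2-fold of that of Gh1, 12 rows, Gh1 included, had a ratio as low. Its vehicle level lay above 37.1% of all rows and its CORT level above 7.38%. With a pseudocount of 1 FPKM the log2 ratio was -1.62, still past 1.5-fold.

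Growth hormone RNA is far more abundant in the pituitary than in the brain, so genes of that gland were read beside it. Of 10 pituitary markers other than Gh1, 3 had a row in the table (4 rows), with a summed level of 9.46 FPKM in the vehicle and 6.27 FPKM in the CORT group. Prl, the gene of the related hormone prolactin, was at 1.39 FPKM after vehicle and 0.190 FPKM after CORT, a log2 ratio of -2.87. Pomc, the precursor of ACTH, which some neurons also express, was at 6.17 and 3.65 FPKM, a log2 ratio of -0.76. The rows of Lhb, the beta subunit of luteinizing hormone, were at 1.55 and 1.59 FPKM and at 0.338 and 0.840 FPKM. Pou1f1, the transcription factor of somatotrophs, was among the markers without a row, as were Cga, Tshb, Fshb, Ghrhr and Gnrhr, and the table leaves out transcripts below the authors' minimum alignment count. Of 10 pineal markers, 2 had a row, and their summed level was 8.62 FPKM after vehicle and 0.260 FPKM after CORT. They were Tph1, at 5.17 and 0.102 FPKM, and Gngt1, at 3.45 and 0.158 FPKM. The other 8, Aanat and Asmt among them, had no row. Prl, Pomc and both pineal rows were thus lower in the same group as Gh1, whereas neither Lhb row was. The detection limit is unknown for CORT values as low as those of Prl and the pineal rows. Such rows may have passed the minimum alignment count through the vehicle group alone. A row that did so could only be lower after CORT, so nothing is read from the direction shared with Gh1. The part of pituitary or pineal tissue in the Gh1 difference was not tested, and in whole tissue fewer cells of a type and less RNA per cell cannot be told apart.

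**Figure D1:**
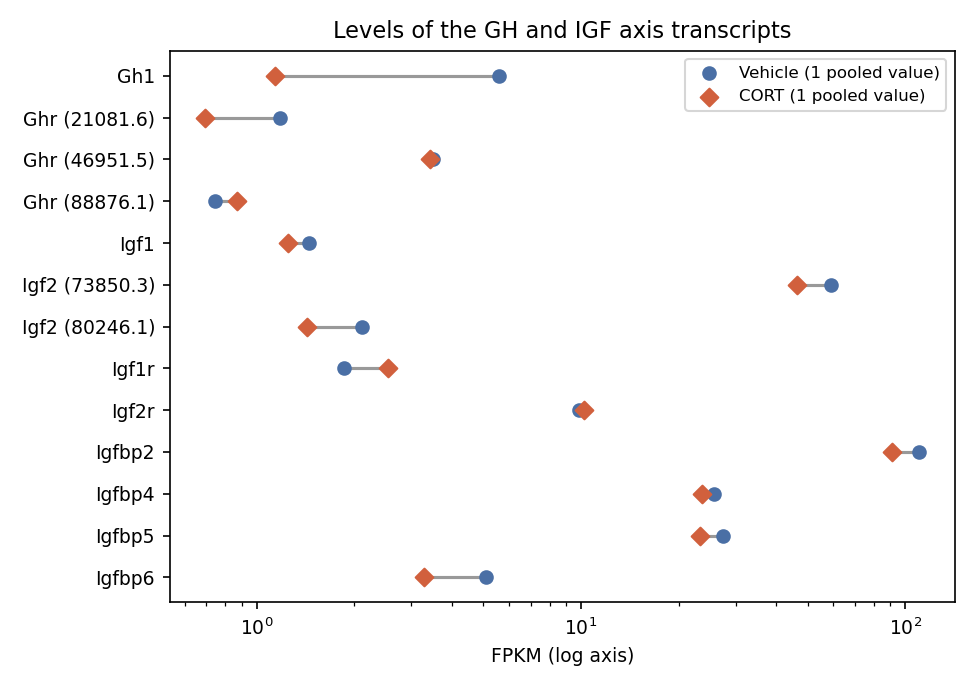
FPKM (log axis) of the 13 transcript rows of the GH and IGF axis, with circles for the vehicle and diamonds for the CORT group, each 1 pooled value of 4 rats without an error. The numbers in brackets are the last digits of the Ensembl transcript identifier. Gh1 shows the widest gap, 5.60 against 1.14 FPKM, while Igf2r and a Ghr transcript have nearly overlapping symbols.

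The growth hormone receptor Ghr, on chromosome 2 between 53150369 and 53413638, has 3 transcripts, which did not differ in one direction. Its main transcript, ENSRNOT00000046951.5, was at 3.50 FPKM after vehicle and 3.42 FPKM after CORT, a log2 ratio of -0.04. ENSRNOT00000021081.6 was at 1.18 and 0.695 FPKM, 1.70-fold lower after CORT, a log2 ratio of -0.77. ENSRNOT00000088876.1 was at 0.742 and 0.869 FPKM, a log2 ratio of 0.23. The first of these thus made up 64.5% of the Ghr total after vehicle and 68.6% after CORT, and ENSRNOT00000021081.6 made up 21.8% and 14.0%. Summed over the 3 transcripts, Ghr was at 5.43 FPKM after vehicle and 4.98 FPKM after CORT, a log2 ratio of -0.13. With a pseudocount of 1 FPKM the ratio of ENSRNOT00000021081.6 was -0.37, no longer past 1.5-fold. In the vehicle group Gh1 and Ghr were at nearly the same level, a ratio of 1.03, and in the CORT group the ratio was 0.229.

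The growth factors were both lower in the CORT group, by less than 1.5-fold. Igf1, on chromosome 7 between 28412197 and 28486609, was at 1.45 FPKM after vehicle and 1.246 FPKM after CORT, a log2 ratio of -0.22. Igf2, on chromosome 1 between 215828101 and 215846911, was far higher. Its main transcript, ENSRNOT00000073850.3, was at 59.0 and 46.3 FPKM, a log2 ratio of -0.35. The minor transcript, ENSRNOT00000080246.1, was at 2.11 and 1.43 FPKM, 1.47-fold lower and thus just short of 1.5-fold, a log2 ratio of -0.56. The main transcript gave 96.6% of the Igf2 total after vehicle and 97.0% after CORT. Summed Igf2 exceeded Igf1 42.2-fold in the vehicle and 38.3-fold in the CORT group.

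The receptors of the growth factors were the members with higher values after CORT, apart from the smallest Ghr transcript. Igf1r, on chromosome 1 between 128924965 and 129206516, was at 1.86 FPKM after vehicle and 2.54 FPKM after CORT, 1.36-fold higher, a log2 ratio of 0.45. Of the 3901 rows whose vehicle FPKM was within 2-fold of it, 394 had a ratio at least as high. Igf2r, also on chromosome 1, between 48176105 and 48264477, was at 9.86 and 10.2 FPKM, a log2 ratio of 0.05, and its promoter is the one above with a pair of E-boxes. The level of Igf1 relative to its receptor Igf1r was 0.779 after vehicle and 0.491 after CORT. For Igf2 relative to Igf2r it was 6.20 and 4.68. Each of these ratios was lower in the CORT group, with no error to set beside it.

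The binding proteins were the most abundant class, and all 4 were lower in the CORT group. Igfbp2, on chromosome 9 between 80118028 and 80144789, had the highest level of all members, 110 FPKM after vehicle and 91.1 FPKM after CORT, a log2 ratio of -0.28. It lay above 95.0% of all rows in the vehicle and above 93.4% in the CORT group. Igfbp5, between 80150210 and 80167033 on the same chromosome, was at 27.5 and 23.3 FPKM, a log2 ratio of -0.24. Igfbp2 and Igfbp5 are separated by 5420 bases in rn6 and are transcribed towards each other, and their log2 ratios were close. Igfbp4, on chromosome 10 between 86950556 and 86962578, was at 25.7 and 23.7 FPKM, a log2 ratio of -0.12.

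Igfbp6, which binds IGF2 in preference to IGF1, had the largest difference of the binding proteins. It lies on chromosome 7 between 143749220 and 143754054, and was at 5.09 FPKM after vehicle and 3.29 FPKM after CORT, 1.55-fold lower, a log2 ratio of -0.63. Of the 5281 rows with a vehicle FPKM within 2-fold of it, 225 had a ratio as low. With a pseudocount of 1 FPKM the ratio was -0.51, no longer past 1.5-fold. Summed, the 4 binding proteins were at 169 FPKM after vehicle and 141 FPKM after CORT, and both growth factors together at 62.6 and 49.0 FPKM. The binding proteins exceeded the growth factors 2.69-fold in the vehicle and 2.88-fold in the CORT group.

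**Figure D2:**
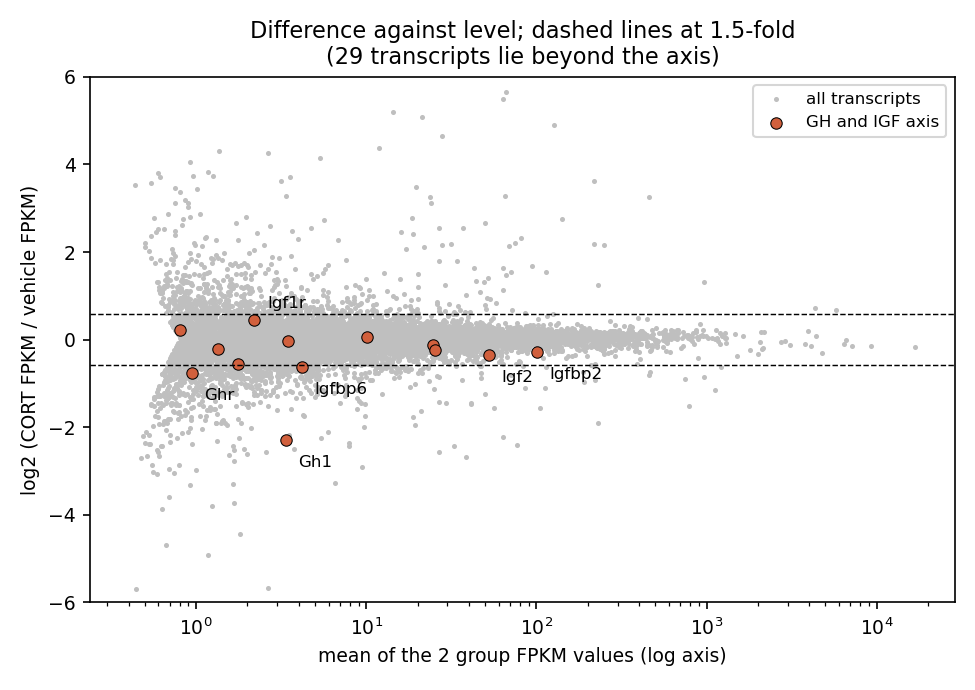
Log2 ratio of CORT over vehicle FPKM against the mean of both group values (log axis), for all 16266 transcripts in grey and the 13 rows of the GH and IGF axis as filled circles, with dashed lines at 1.5-fold. The spread of the grey points widens towards low levels, Gh1 lies at -2.29 below most rows of its level, and 29 transcripts lie beyond the axis.

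In the vehicle group the order of the genes by summed FPKM was Igfbp2, Igf2, Igfbp5, Igfbp4, Igf2r, Gh1, Ghr, Igfbp6, Igf1r and Igf1. In the CORT group it was Igfbp2, Igf2, Igfbp4, Igfbp5, Igf2r, Ghr, Igfbp6, Igf1r, Igf1 and Gh1. Gh1 thus went from place 6 to place 10. No spread is available by which neighbours in either order could be separated, and Igfbp4 and Igfbp5, whose order is exchanged, lay between 23.3 and 27.5 FPKM in both groups.

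Of the 13 rows, 3 were at least 1.5-fold lower in the CORT group, Gh1, a Ghr transcript and Igfbp6, where 4.91% of all rows were. None was at least 1.5-fold higher, where 4.21% of all rows were. Since the genes were selected on this comparison, nothing is read from these counts. Below 0 lay 10 of the 13 log2 ratios, and 7317 of all 16266. The median of the 13 was -0.24, against 0.02 over all rows. For the same reason nothing is read from these values either. The ratios spread more widely at low levels. Of the rows with a vehicle FPKM within 2-fold of the Ghr transcript ENSRNOT00000021081.6, 14.3% were at least 1.5-fold lower, against 1.23% of the rows near the level of Igfbp5.

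**Figure D3:**
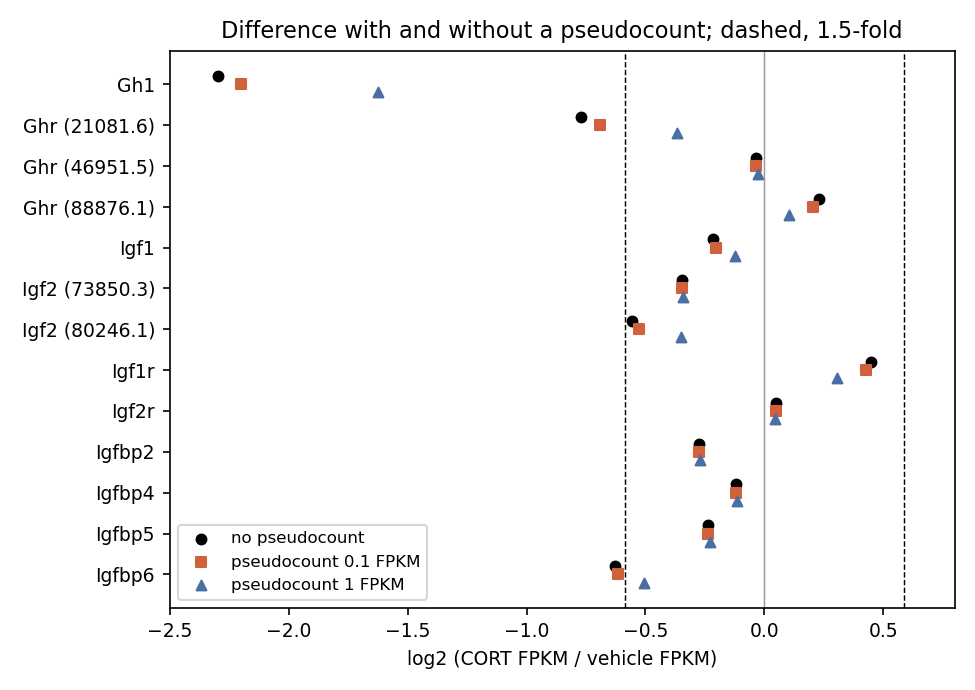
Log2 ratio of CORT over vehicle FPKM for the 13 rows without a pseudocount (circles), with 0.1 FPKM (squares) and with 1 FPKM (triangles) added to both groups, with dashed lines at 1.5-fold. Gh1 stays past the line with each, at -2.29, -2.20 and -1.62, whereas Igfbp6 and a Ghr transcript cross it with 1 FPKM.

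The other genes of the pathway were read from a list of 44, of which 31 had a row, with 37 rows in all. Of these rows, 3 were at least 1.5-fold lower, where 4.91% of all rows were, and 2 at least 1.5-fold higher, where 4.21% were. Nothing is read from such small counts. The median log2 ratio of the 37 rows was 0.06. Lower were Prl, given above, Ghrl, the gene of the growth hormone secretagogue ghrelin, at 1.03 and 0.665 FPKM, and an Shc1 adaptor transcript at 3.40 and 2.21 FPKM. Higher were Socs3, a feedback inhibitor of cytokine receptors, at 0.991 and 1.59 FPKM, and a prolactin receptor (Prlr) transcript at 0.297 and 1.17 FPKM. The other Shc1 and Prlr transcripts had log2 ratios of 0.05 and -0.02. The releasing hormone Ghrh and its receptor Ghrhr had no row.

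Downstream of Ghr, no row of Jak2, Stat5a, Stat5b or Socs2 was past 1.5-fold, whereas Socs3, given above, was. Cish, also on the list, had no row. Stat5a was at 1.43 FPKM after vehicle and 1.08 FPKM after CORT, a log2 ratio of -0.40, and the Stat5b rows had ratios of 0.01 and 0.11. Jak2, the kinase bound to Ghr, was at 10.2 FPKM after vehicle and 11.3 FPKM after CORT. Socs2, which limits growth hormone signalling, was at 4.37 and 3.99 FPKM. Downstream of Igf1r, the adaptor Irs2 was at 10.2 and 13.1 FPKM, a log2 ratio of 0.36, and Irs1 at 1.22 and 1.28 FPKM. The insulin receptor Insr was at 4.80 and 5.12 FPKM. Of the binding proteins outside the members, Igfbp3 was at 4.82 and 4.79 FPKM and Igfbp7 at 76.4 and 65.0 FPKM. Somatostatin (Sst), which inhibits growth hormone release and in the hippocampus marks a class of interneurons, was at 151 and 195 FPKM, a log2 ratio of 0.37. Its receptors Sstr1 to Sstr4 were each higher after CORT, with log2 ratios from 0.17 to 0.36. Genes in this paragraph were chosen after their values were seen.

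Igf2, Igfbp2 and Igfbp6 are known products of the meninges and, for Igf2 and Igfbp2, of the choroid plexus, so markers of both were set beside them. Over all rows, 4.91% were at least 1.5-fold lower in the CORT group and 4.21% at least 1.5-fold higher. Of 14 markers of meningeal fibroblasts, 11 had a row, and 8 of the 11 rows were at least 1.5-fold lower in the CORT group. Their summed level was 121 FPKM after vehicle and 84.3 FPKM after CORT, and their median log2 ratio was -1.20. Col1a1 was at 7.66 and 3.44 FPKM, and Slc6a13 at 7.21 and 3.03 FPKM. The rows short of 1.5-fold were Mgp, the most abundant of the list, at 42.5 and 36.5 FPKM, Lum at 7.01 and 5.03 FPKM, and Dcn. Dcn was at 18.8 and 20.0 FPKM. Of 14 markers of the choroid plexus, 13 had a row, and of 16 rows none was at least 1.5-fold lower and 2 were higher, a transcript of F5 at 0.983 and 2.10 FPKM and one of Prlr at 0.297 and 1.17 FPKM. Their summed level was 7118 FPKM after vehicle and 7076 FPKM after CORT, and Ttr, the transthyretin gene, was at 6605 and 6598 FPKM. These choroid plexus sums rested largely on Ttr and say little about the other rows. Of the 16 rows, 9 had a log2 ratio below 0 and 7 above, with a median of -0.01. An Enpp2 transcript was at 206 and 184 FPKM and Sostdc1 at 31.3 and 25.6 FPKM, whereas Tmem72 was at 7.59 and 8.58 FPKM. Most markers of the meninges were thus lower in the group in which Igf2, Igfbp2 and Igfbp6 were lower. Those of the choroid plexus differed in both directions. The part of either tissue in the differences of the members was not tested.

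Markers of the other cells of the tissue, and of the thalamus and habenula, which lie outside the hippocampus, were read in the same way. The shares over all rows, 4.91% at least 1.5-fold lower and 4.21% higher, apply here too. Of 13 markers of hippocampal neurons, 12 had a row, none of 19 rows was at least 1.5-fold lower and 2 were higher, and the summed level was 2030 FPKM after vehicle and 2211 FPKM after CORT. Camk2a was at 593 and 667 FPKM and Neurod6 at 128 and 119 FPKM, so the defining genes of hippocampal neurons were present in both groups. The 12 markers of microglia, a source of Igf1 in the brain, had 14 rows, with no row at least 1.5-fold lower, 1 higher (Tmem119, at 5.72 and 11.2 FPKM), 12 ratios below 0 and a summed level of 506 and 460 FPKM. For astrocytes, 3 of 16 rows were at least 1.5-fold lower and 3 higher, with sums of 2664 and 2207 FPKM and Gfap at 970 and 517 FPKM. For endothelial and mural cells 4 of 13 rows were lower and 1 higher, with sums of 258 and 151 FPKM. For thalamus and habenula 7 of 11 rows were lower and 2 higher, with sums of 67.6 and 50.5 FPKM. The median log2 ratio was 0.14 for neurons, -0.20 for microglia, -0.05 for astrocytes, -0.16 for endothelial and mural cells and -0.73 for thalamus and habenula. The sums of astrocytes and of endothelial and mural cells rested largely on 1 row each. Without Gfap the astrocyte sums were 1694 and 1690 FPKM, and without a Tagln transcript those of endothelial and mural cells were 153 and 129 FPKM, an alternative chosen after seeing the data. The part of these cells, or of tissue from outside the hippocampus, in the differences of the members was not tested.

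**Figure D4:**
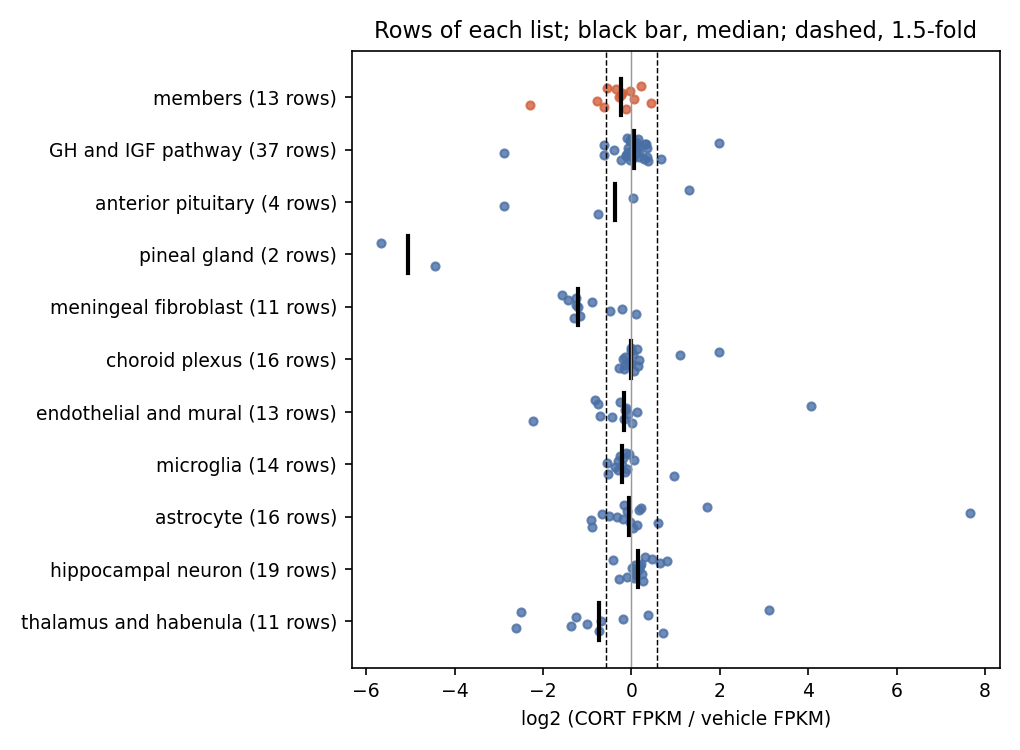
Log2 ratio of CORT over vehicle FPKM for the rows of the GH and IGF axis (members), of the wider pathway and of 9 lists of marker genes, with a point for each transcript row, a black bar for the median and dashed lines at 1.5-fold. The median of the meningeal list is at -1.20, that of the choroid plexus list near 0 and that of the hippocampal neurons at 0.14.

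Genes known to respond to glucocorticoids had higher values in the CORT group. Sgk1 was at 28.5 FPKM after vehicle and 70.4 FPKM after CORT for its main transcript, Tsc22d3 at 36.5 and 69.6 FPKM, and Fkbp5 at 18.6 and 33.8 FPKM. The glucocorticoid receptor Nr3c1 was at 23.2 and 18.3 FPKM for its main transcript, and the mineralocorticoid receptor Nr3c2 at 24.1 and 30.2 FPKM.

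The transcripts nearest to that of Gh1, by the distance between log2 FPKM values over both groups, were of Tmem38a, Mink1, Akap12, Plac8 and Gngt2. Only the nearest transcript of each gene was kept. Tmem38a, at 5.78 FPKM after vehicle and 1.28 FPKM after CORT, was nearest, at a distance of 0.174. For the main Igf2 transcript they were of Aqp4, Hnrnpl, Psmb7, Gltscr2 and Tmem176a. An Aqp4 transcript at 60.1 and 47.6 FPKM was nearest, at a distance of 0.0461. The most abundant Aqp4 transcript was at 93.6 and 65.5 FPKM. With only 2 group values per transcript, such likeness covers a level and a single difference.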

How the data were processed

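RNAseq was made from total RNA of whole hippocampi with a stranded protocol. According to the submitters' processing notes and the methods, the authors used CASAVA 1.8.2, aligned reads to the rn6 genome with TopHat2 2.0.10, estimated transcripts with Cufflinks and compared groups with Cuffdiff 2.2.0. The FPKM values were deposited by the authors as 1 value per group, after geometric normalization between libraries, with corrections for multi-mapping, sequence bias and effective length, and with transcripts under a minimum alignment count removed. The table also holds the authors' own fold change, test statistic, p-value and q-value, which were not used. Per-rat values were not used, 0 columns hold them, and Cufflinks estimates are not whole reads, so no depth was recovered.

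Log2 ratios were computed from both group values without a pseudocount, and rows past 1.5-fold were counted. The counting step alone was first run on simulated differences without noise, which says nothing about the count at low FPKM. The members and gene lists were chosen with earlier results of these data known. Named were all members, pathway genes past 1.5-fold with at least 1 FPKM in 1 group, and Nr3c1, Nr3c2, Sgk1, Tsc22d3 and Fkbp5. Also named were the 5 genes with the transcript nearest in both levels to Gh1 and to the main Igf2 transcript. Other genes were named after their values were seen. Symbols were matched exactly, and promoters were taken from RefSeq, build GRCr8, of which no coordinate was mixed with rn6. Python 3.11.15, numpy 2.4.6, pandas 2.3.3 and matplotlib 3.10.9 were used.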

Additional observations from a re-analysis of the deposited data

How the results depend on the processing

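The number of rows at least 1.5-fold lower in the CORT group, 3 of 13, became 5 with a threshold of 0.32 on the log2 scale, where 10.8% of all rows were lower, and 1, that of Gh1, with a 2-fold threshold (2.03% of all rows) or a pseudocount of 1 FPKM (2.35%). The number at least 1.5-fold higher, 0, became 1 with the log2 threshold of 0.32, that of Igf1r, where 9.54% of all rows were higher. Both counts were the same with a filter of 1 FPKM, a pseudocount of 0.1 FPKM or centring on the median, and 2 and 0 of 10 with 1 value per gene, summed or from its highest transcript. The median log2 ratio lay between -0.26 and -0.23 over these alternatives. Of the 13 log2 ratios, 6 moved by 0.1 or more with a pseudocount of 1 FPKM and 3 when summed. None moved so far with a pseudocount of 0.1 FPKM or centring, and none past 1.5-fold changed sign in these settings. Single ratios were not compared for the filter or the highest transcript. Summing left the share of all values at least 1.5-fold lower at 3.75% and higher at 1.77%. The lower counts with a stricter threshold follow from it; the cause of the other shifts was not tested. Leaving out rats was not run. No paired analysis was possible because each group is a single pooled column. Without counts, the detection limit is unknown for the low FPKM values of Gh1, Ghr and Igf1.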

Other observations

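The nearest genes with a row on either side of Gh1 in rn6 had log2 ratios nearer to 0. Tcam1, which ends 7609 bases before Gh1, was at 1.30 FPKM after vehicle and 1.47 FPKM after CORT, a log2 ratio of 0.17. Icam2, an adhesion molecule of endothelial cells, which begins 81708 bases after it, was at 3.62 and 2.94 FPKM, a log2 ratio of -0.30. On either side of Igfbp6, Spryd3 was at 98.5 and 109 FPKM and Csad at 18.5 and 17.5 FPKM. On either side of Igf2, the mitochondrial ribosomal gene Mrpl23 was at 54.0 and 54.6 FPKM and Ascl2 at 0.997 and 0.828 FPKM. Of the 18 neighbours of all members that are not members themselves, 2 were at least 1.5-fold lower in the CORT group and 0 higher. Over all genes, summed in the same way, 3.75% were lower and 1.77% higher, and nothing is read from so small a count. The lower neighbours were Top2a, a topoisomerase of dividing cells, before Igfbp4, and Slc22a2, an organic cation transporter, after Igf2r. Top2a was at 1.75 and 0.572 FPKM, a log2 ratio of -1.62, and Slc22a2 at 1.29 and 0.425 FPKM, a log2 ratio of -1.60. On the other side, Smarce1 after Igfbp4 was at 46.1 and 47.5 FPKM and Mas1 before Igf2r at 22.7 and 25.5 FPKM. These neighbours were chosen by position after the values of the members were seen.

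Minor transcripts of several marker genes differed in the opposite direction to the main transcript of the same gene. Tagln, a smooth muscle gene, had a main transcript at 105 FPKM after vehicle and 22.5 FPKM after CORT and a minor one at 0.104 and 1.72 FPKM. A minor Aqp4 transcript was at 0.0126 and 2.55 FPKM, while the most abundant transcript of this astrocyte water channel was at 93.6 and 65.5 FPKM. The other Aqp4 transcripts, at 60.1 and 47.6 FPKM and at 17.5 and 15.6 FPKM, differed in the same direction as the most abundant. For vehicle values as low as those of the minor Tagln and Aqp4 transcripts the detection limit is unknown. The transcripts of Ghr given above also differed in direction, at log2 ratios of -0.77, -0.04 and 0.23, but the main one, at -0.04, hardly differed. These genes were chosen after their values were seen.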
